A study of Mus musculus with 48 samples.

Results

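Transforming growth factor beta (TGF-beta) activation and response was followed through 9 genes: Lrrc32, Itgb8 and Itgav, which act in making the latent cytokine active, Tgfb1, which encodes the cytokine, Tgfbr1 and Tgfbr2, its receptors, Smad3, which carries the signal, and Smad7 and Skil, which restrain it. They were chosen by gene symbol from the 53345 genes of the expression matrices, for their place in the pathway. Earlier results of these data were known when they were chosen. All 9 are protein-coding, were found in the matrices and passed the filter on low counts, and the smallest expected count of any of them in any library was 95.

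TGF-beta is secreted in a latent form, held inactive by its own propeptide. On Tregs the latent form is docked on GARP, and integrins that grip the propeptide release the active cytokine, which binds a pair of receptor kinases that phosphorylate Smad2 and Smad3. In T cells the pathway is known for limiting activation and for inducing Foxp3, the lineage factor of Tregs.

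RNA was sequenced in 32 libraries of spleen Tregs and 16 of CD25- conventional T cells (Tcons), the latter from mice that also gave Tregs. The mice were undiseased female C57BL/6, an inbred strain, 8-12 weeks old. The series' design gives 4 mice a group, but isotype WT IL-2 Treg replicates 3a and 3b carry the same mouse number in the labels. They were counted as separate mice, and whether they were cannot be told from the labels. Each mouse had 2 injections of 500 µg of either an isotype control antibody or an antibody that blocks MHC II, the molecule that presents antigen to the T-cell receptor (TCR), on day -1 and day 0. On day 0 it received either PBS or 25 µg of an Fc-fused human IL-2 protein, which was wildtype (WT IL-2), the mutein H16R or the mutein 3x, both muteins being attenuated forms with changed residues, and the spleen was taken on day 4. This gave 8 groups of 4 Treg libraries and the same 8 groups of 2 Tcon libraries. Tregs were the cells bound in a bead selection for CD25, itself an IL-2 receptor chain, and Tcons were the cells that flowed through, so neither fraction was sorted on Foxp3. The paper reports a purity check on stained aliquots, in which most samples were largely Foxp3+ after purification. In bulk RNA from such fractions, fewer cells of a type and less RNA per cell cannot be told apart.

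Depth ran from 18.3 to 51.2 M expected counts in Tregs and from 31.3 to 52 M in Tcons, and was lowest in the isotype PBS Tregs, at 18.3 to 34.6 M. Foxp3 was at 687 to 1249 CPM (expected counts scaled to library size) in Tregs and at 46.8 to 183 CPM in Tcons, so the Tcon fraction held some Foxp3 transcript in every library. The summed CPM of 6 Treg markers was 2579 to 4759 in Tregs and 372 to 1596 in Tcons. Some libraries stood apart. In Tregs, isotype PBS replicate 1 and MHC II block WT IL-2 replicate 1 had B cell marker sums (5 genes) of 544 and 518 CPM, against at most 129 CPM in every other Treg library, and the latter had a myeloid marker sum (5 genes) of 486 CPM. Isotype PBS replicate 4, the shallowest Treg library, was the highest of its group in 7 of the 9 genes and the lowest in Tgfb1. Among Tcons, isotype WT IL-2 replicate 2 had a Treg marker sum of 1596 CPM, against 642 CPM in replicate 1. Values without these libraries are given where a call or a value changed most.

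Between genes, levels can be compared only per transcript length, as FPKM, fragments scaled to transcript length and library size. In Tregs the highest median was that of Lrrc32, 114 FPKM over 32 libraries, followed by Tgfb1 at 64.2 FPKM. Tgfbr2 at 40.7, Smad7 at 39.7, Skil at 30.3 and Smad3 at 28.2 FPKM came next, and neighbours in this order had overlapping ranges. Lowest were Tgfbr1 at 14.2, Itgav at 8.55 and Itgb8 at 4.47 FPKM. In Tcons the order differed: Tgfbr2 was highest at a median of 56.8 FPKM over 16 libraries, then Tgfb1 at 54.1 FPKM, while Lrrc32 was at 11.5 FPKM and Itgb8 at 0.673 FPKM.

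**Figure D1:**
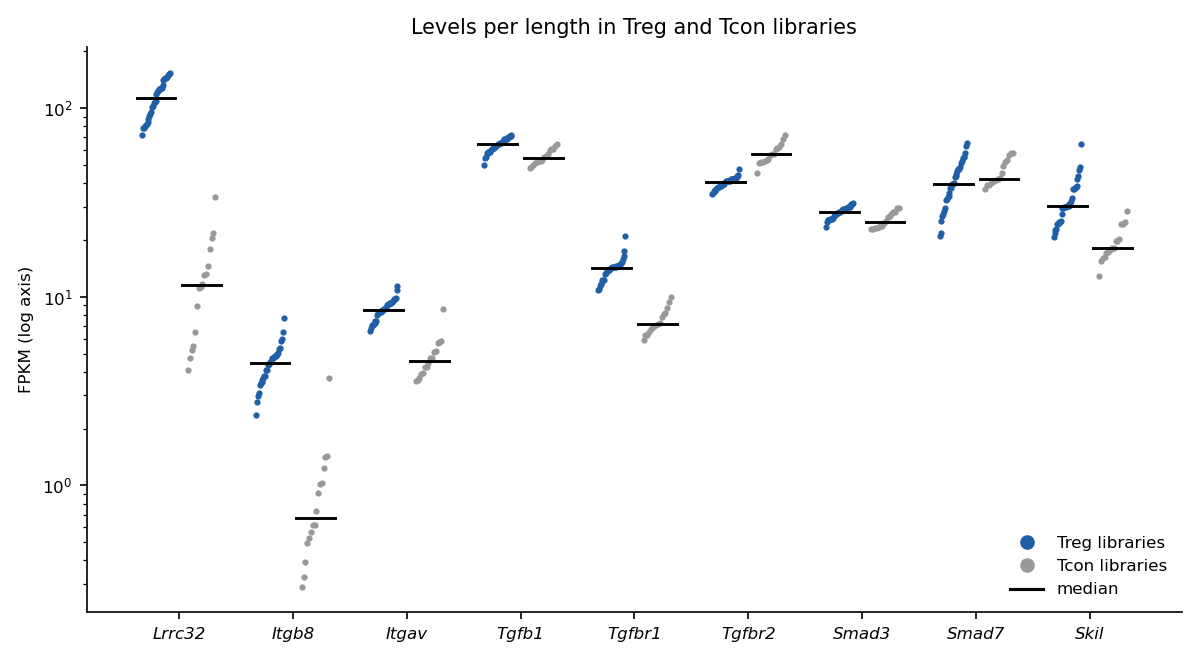
FPKM on a log axis of the 9 genes in each of the 32 Treg and 16 Tcon libraries, with points in order of value and a line at each median. Lrrc32 stands at a median of 114 FPKM in Tregs and 11.5 FPKM in Tcons, without overlap, whereas the medians of Smad7 are 39.7 and 42.2 FPKM.

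Itgav and Itgb8 encode the partner subunits of integrin alpha v beta 8, and the windows around their start sites are shown because these partners moved differently below. The sequences are RefSeq's on GRCm38.p6, each 300 bases from 250 before the start of transcription to 50 after it, in lower case, with matches to CAGAC, a Smad binding element, on either strand in capitals.
Itgav, chr2:83724147-83724446, plus strand: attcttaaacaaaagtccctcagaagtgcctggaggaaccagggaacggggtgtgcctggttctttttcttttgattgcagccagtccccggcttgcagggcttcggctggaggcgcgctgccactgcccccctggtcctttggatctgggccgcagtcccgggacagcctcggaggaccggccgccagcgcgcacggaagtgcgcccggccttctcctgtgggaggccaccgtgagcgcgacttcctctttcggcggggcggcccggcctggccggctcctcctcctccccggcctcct
Itgb8, chr12:119238227-119238526, minus strand: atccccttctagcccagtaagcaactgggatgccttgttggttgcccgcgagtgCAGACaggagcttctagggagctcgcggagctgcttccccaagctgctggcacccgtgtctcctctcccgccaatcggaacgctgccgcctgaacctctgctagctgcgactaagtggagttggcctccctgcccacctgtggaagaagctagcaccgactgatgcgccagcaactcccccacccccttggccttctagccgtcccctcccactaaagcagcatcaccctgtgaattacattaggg
The Itgb8 window holds CAGAC once, from base 55, and the Itgav window holds none. RefSeq windows were matched for 6 of the 9 genes, in 7 windows, and CAGAC also lies in the Tgfbr2 window and in 1 of 2 Tgfbr1 windows, whereas 49.6% of all 32851 windows of this length hold it. The STAT5 motif TTCNNNGAA, searched on both strands, lies in none of the 7 windows and in 8.3% of all windows. A match describes letters in these windows and says nothing on binding.

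The first question was how each IL-2 protein changed these genes in Tregs. Under isotype antibody, Lrrc32 rose with all 3 IL-2 proteins, as did Itgav and Smad3, whereas Smad7 and Skil fell with all 3. Itgb8 rose with WT IL-2 and was not called with either mutein. Of the 9 genes, 4 rose and 2 fell with WT IL-2, 3 rose and 2 fell with H16R, and 4 rose and 2 fell with 3x. Calls are those of edgeR's quasi-likelihood test at an adjusted p below 0.1 over 12392 genes, and of all these genes 26% rose and 26.2% fell with WT IL-2, 31.4% rose and 32.8% fell with H16R, and 31.3% rose and 32.3% fell with 3x. With H16R, rises were 48.85% of all calls, and 38.45% when counts were scaled to their totals alone. The median log2 fold change of the 9 genes was 0.14 for WT IL-2, 0.04 for H16R and -0.07 for 3x, and that of all genes with WT IL-2 was -0.01. The 3 comparisons share the same 4 PBS libraries. The B cell and dendritic cell marker sums were lower in the IL-2 groups without overlap. The B cell sum was 99.9 to 544 CPM with PBS, against 42.1 to 78.7, 26.1 to 34.1 and 24.1 to 31.2 CPM with WT IL-2, H16R and 3x. The dendritic cell sum was 23.3 to 45.8 CPM with PBS, against 11.3 to 15.2, 6.15 to 8.64 and 7.03 to 9.70 CPM, and the part of these cells in the results was not tested.

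**Figure D2:**
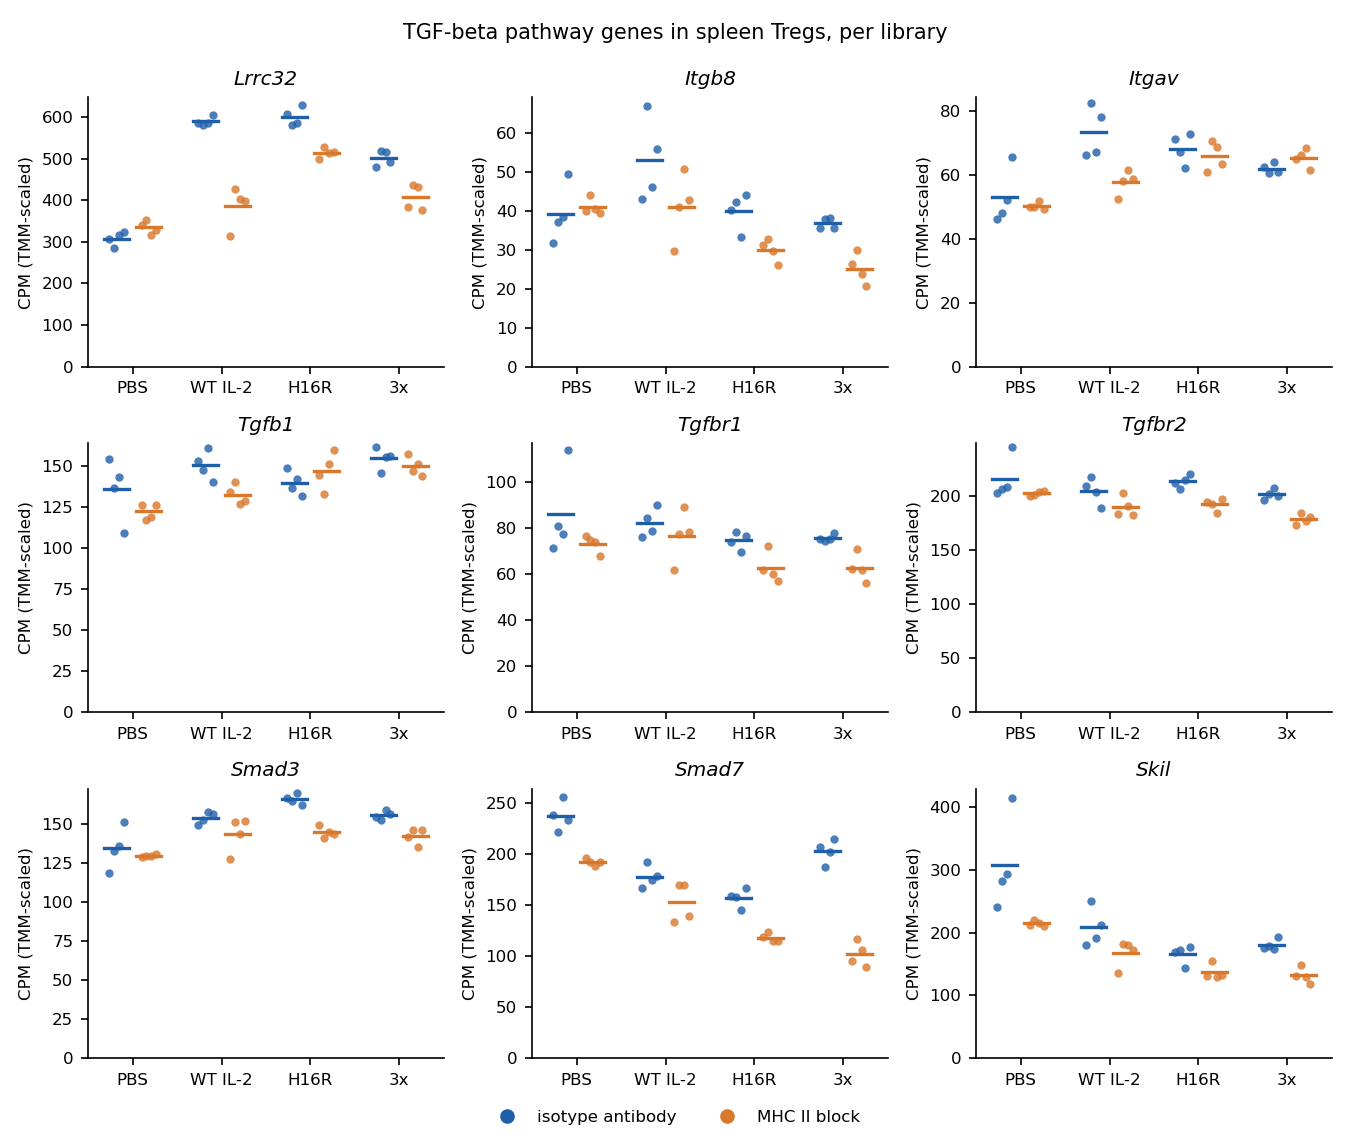
CPM of each gene in every Treg library by treatment, blue for isotype and orange for MHC II block, with a bar at each mean of 4 libraries. Lrrc32 under isotype lies at 284 to 324 CPM with PBS and at 480 CPM or above with each IL-2 protein, and Smad7 is lowest with 3x under MHC II block, at 89.6 to 117 CPM.

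Lrrc32 (chromosome 7, 98489283-98502181, GRCm38, plus strand) encodes GARP, the surface protein that docks latent TGF-beta on Tregs. Under isotype its 4 PBS libraries were at 306, 284, 317 and 324 CPM. With WT IL-2 they were at 587, 581, 586 and 606 CPM, with H16R at 609, 581, 586 and 630 CPM, and with 3x at 480, 518, 515 and 492 CPM. Every treated library was thus above every PBS library, and the 3x libraries were below those of the other 2 proteins. The log2 fold change over PBS was 0.94 (95% interval 0.81 to 1.06) with WT IL-2, 0.97 (0.84 to 1.10) with H16R and 0.71 (0.59 to 0.84) with 3x. Foxp3 moved in the same groups, from a mean of 752 CPM with PBS to 1012, 1172 and 1143 CPM, and its part in the result was not tested. Platelets also express Lrrc32, and the summed level of 5 platelet markers was 1.85 to 6.30 CPM over all Treg libraries, with Pf4 at 0 in all 4 isotype PBS libraries.

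Itgav (chromosome 2, 83724397-83806916, plus strand) encodes the alpha v subunit shared by the integrins that activate TGF-beta. With PBS under isotype it was at 46.2, 48.1, 52.3 and 65.8 CPM. With WT IL-2 it was at 66.5, 82.6, 67.3 and 78.3 CPM, with H16R at 71.2, 67.2, 62.2 and 72.8 CPM and with 3x at 62.4, 60.7, 64.1 and 61.0 CPM. Only the WT IL-2 libraries all lay above the PBS libraries, since PBS replicate 4 reached into the other groups. The log2 fold change ran from 0.48 (edgeR's quasi-likelihood test, adjusted p = 1.51e-05) with WT IL-2 through 0.38 (0.000171) with H16R to 0.24 (0.00934) with 3x. Without PBS replicate 4 these were 0.60, 0.49 and 0.36.

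Itgb8 (chromosome 12, 119158022-119238802, minus strand) encodes the beta 8 subunit, which pairs only with alpha v. Its PBS libraries under isotype were at 31.7, 37.2, 38.6 and 49.5 CPM. With WT IL-2 they were at 43.2, 66.9, 46.3 and 56.1 CPM, with H16R at 40.2, 42.3, 33.4 and 44.0 CPM and with 3x at 35.7, 38.0, 38.1 and 35.6 CPM. Each treated group overlapped the PBS group, and against PBS WT IL-2 alone was called, at a log2 fold change of 0.45 (0.16 to 0.73; adjusted p = 0.0103). H16R gave 0.04 (-0.25 to 0.32) and 3x gave -0.07 (-0.36 to 0.22), and both muteins were below WT IL-2 itself. The log2 difference from WT IL-2 was -0.41 for H16R (adjusted p = 0.0488 in edgeR) and -0.52 for 3x (0.00549). The H16R difference was lost without isotype WT IL-2 replicate 2 (adjusted p = 0.226, edgeR), WT IL-2 replicate 3b (0.117) or H16R replicate 3 (0.212).

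Tgfb1 (chromosome 7, 25687002-25705077, plus strand), the cytokine gene, moved little. Over PBS under isotype its log2 fold change was 0.14 with WT IL-2 and 0.04 with H16R, neither called, and 0.19 with 3x (edgeR's quasi-likelihood test, adjusted p = 0.0233). PBS replicate 4 was the low library at 109 CPM against 137 to 154 CPM in the other 3, and without it the 3x value was 0.10 (edgeR, adjusted p = 0.130). Without isotype PBS replicate 1 and MHC II block WT IL-2 replicate 1, WT IL-2 gave 0.21 (adjusted p = 0.0147, edgeR). WT IL-2 was also called with DESeq2 (adjusted p = 0.0965) and with no CPM filter in edgeR (0.095), and 3x was not when only the groups compared were fitted (0.143).

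The receptor genes were not called under isotype. Tgfbr1 (chromosome 4, 47353222-47414931, plus strand), the type I receptor kinase, had log2 fold changes of -0.06, -0.19 and -0.17 with WT IL-2, H16R and 3x. Tgfbr2 (chromosome 9, 116084293-116175360, minus strand), the type II receptor that binds the ligand, had -0.07, -0.01 and -0.09. PBS replicate 4 was the highest library of both, at 114 CPM of Tgfbr1 and 245 CPM of Tgfbr2, against at most 80.9 and 208 CPM in the other PBS libraries. Without it the log2 fold changes were 0.11, -0.04 and -0.01 for Tgfbr1 and -0.00, 0.06 and -0.02 for Tgfbr2, none called, so that the lower Tgfbr1 with the muteins rested on that library. Without isotype PBS replicate 1 and MHC II block WT IL-2 replicate 1, Tgfbr1 was called lower with H16R at -0.27 (edgeR's quasi-likelihood test, adjusted p = 0.0192) and with 3x at -0.24 (0.0357), and Tgfbr2 was called lower with 3x at -0.11 (0.0574). Tgfbr1 with H16R was also called lower with total counts only (edgeR, adjusted p = 0.0368), counts thinned to the smallest library (0.0803), DESeq2 (0.0961) and both limma fits on FPKM (0.0680 and 0.0660). Tgfbr2 with 3x was called lower with RLE size factors (edgeR, adjusted p = 0.0985), total counts only (0.00898), DESeq2 (0.0869) and both limma fits (0.0136 and 0.0140). With total counts only, Tgfbr1 with 3x (edgeR, adjusted p = 0.0724) and Tgfbr2 with WT IL-2 (0.0593) were called lower as well.

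Smad3 (chromosome 9, 63646767-63757994, minus strand) encodes the transcription factor that the receptors phosphorylate. With PBS under isotype it was at 118, 132, 136 and 151 CPM, with WT IL-2 at 149, 152, 157 and 156 CPM, with H16R at 166, 165, 170 and 162 CPM and with 3x at 154, 152, 159 and 156 CPM. All H16R and 3x libraries were above the PBS libraries. The differences were small but called, at log2 fold changes of 0.20 (edgeR's quasi-likelihood test, adjusted p = 0.00103), 0.31 (1.89e-06) and 0.22 (0.00014).

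Smad7, on chromosome 18, encodes the inhibitory Smad that blocks receptor signaling and is itself a TGF-beta target. Under isotype it was at 238, 221, 256 and 234 CPM with PBS. It was at 167, 192, 174 and 179 CPM with WT IL-2, at 159, 158, 145 and 167 CPM with H16R and at 207, 188, 202 and 215 CPM with 3x. All treated libraries were below all PBS libraries, with H16R lowest on average and 3x nearest to PBS. The log2 fold changes were -0.42 (-0.57 to -0.27), -0.59 (-0.74 to -0.44) and -0.22 (-0.37 to -0.06). Between the muteins, 3x was higher than H16R by 0.37 (edgeR's quasi-likelihood test, adjusted p = 0.00259).

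Skil (chromosome 3, 31095058-31122577, plus strand) encodes SnoN, a corepressor that binds Smads and is also induced by TGF-beta. Its PBS libraries under isotype were at 240, 281, 292 and 414 CPM, replicate 4 being far the highest. With WT IL-2 they were at 180, 250, 191 and 213 CPM, with H16R at 169, 173, 144 and 177 CPM and with 3x at 176, 178, 173 and 193 CPM. The H16R and 3x libraries were all below the PBS libraries. The log2 fold changes were -0.55 (edgeR's quasi-likelihood test, adjusted p = 0.000265), -0.88 (2.45e-07) and -0.76 (2.7e-06), and without PBS replicate 4 they were -0.38, -0.71 and -0.58, all called.

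**Figure D3:**
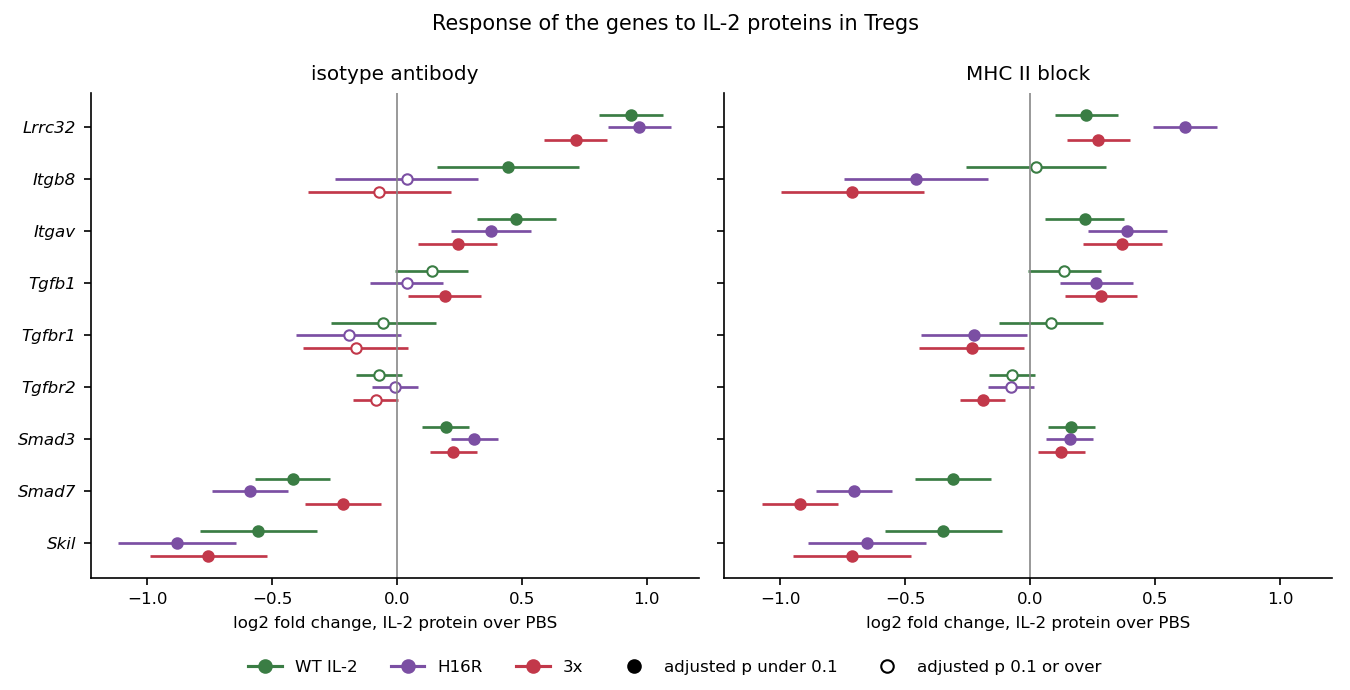
Log2 fold change over PBS, with its 95% interval, of each gene in Tregs with each IL-2 protein, under isotype and under MHC II block, where filled points have an adjusted p below 0.1. Lrrc32 is highest in the isotype panel (0.71 to 0.97), and Itgb8 with 3x goes from -0.07 under isotype to -0.71 under MHC II block.

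The second question was whether IL-2 acted alike when MHC II was blocked. With MHC II blocked, 3 genes rose and 2 fell with WT IL-2, 4 rose and 4 fell with H16R, and 4 rose and 5 fell with 3x, against their own 4 PBS libraries. Among all genes tested, 21.9% rose and 13.7% fell with WT IL-2, 32.7% rose and 33.8% fell with H16R, and 34.7% rose and 38.3% fell with 3x. With WT IL-2, rises were 61.53% of all calls, and 43.98% when counts were scaled to their totals alone. Lrrc32, Itgav and Smad3 again rose with all 3 proteins and Smad7 and Skil fell with all 3, while Tgfb1 rose and Itgb8 and Tgfbr1 fell with the muteins. Tgfbr2 fell with 3x. Markers of other cells moved in the same comparisons without overlap. The CD8 and NK sum was 27.3 to 32.6 CPM with PBS and 81.9 to 249 CPM with an IL-2 protein, and the myeloid sum was 13.6 to 20.6 CPM with PBS and 23.9 to 486, 33.1 to 57.9 and 45.8 to 62.7 CPM with WT IL-2, H16R and 3x. The part of these cells in the results was not tested.

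For Lrrc32 under MHC II block, the PBS libraries were at 340, 353, 316 and 329 CPM and the WT IL-2 libraries at 315, 427, 404 and 399 CPM. The H16R libraries were at 500, 529, 514 and 516 CPM and the 3x libraries at 383, 436, 433 and 376 CPM. H16R thus stood above both other proteins, and WT IL-2 replicate 1, the library with B cell and myeloid markers, was just below the lowest PBS library. The log2 fold changes over PBS were 0.22 (0.10 to 0.35) with WT IL-2, 0.62 (0.49 to 0.75) with H16R and 0.27 (0.15 to 0.40) with 3x. Without WT IL-2 replicate 1 the first was 0.30. H16R exceeded WT IL-2 by 0.40 (adjusted p = 1.19e-05 in edgeR), whereas under isotype their difference was 0.03 (-0.09 to 0.16). Under MHC II block Foxp3 also differed between these groups, at 687 to 874 CPM with WT IL-2 and 1056 to 1186 CPM with H16R, as did the Treg marker sum, at 2579 to 3590 and 3960 to 4318 CPM, and their part in the result was not tested.

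Itgb8 under MHC II block was at 40.0, 44.1, 40.5 and 39.6 CPM with PBS and at 29.8, 41.0, 50.8 and 42.8 CPM with WT IL-2. With H16R it was at 31.3, 32.7, 29.8 and 26.2 CPM and with 3x at 26.5, 30.0, 23.8 and 20.6 CPM. All mutein libraries were below all PBS libraries, while the WT IL-2 libraries lay on both sides. The log2 fold change was 0.02 (-0.26 to 0.30) with WT IL-2, -0.46 (edgeR's quasi-likelihood test, adjusted p = 0.00626) with H16R and -0.71 (6.16e-05) with 3x. Its partner Itgav went the other way, with log2 fold changes of 0.22, 0.39 and 0.37, and all treated libraries, at 52.4 to 70.6 CPM, were above the PBS libraries, at 49.5 to 51.9 CPM. The Itgav call with WT IL-2 was at an adjusted p of 0.0354 by edgeR's test, and was lost under scaling to total counts and in limma on FPKM (adjusted p up to 0.128).

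Tgfb1 under MHC II block had 126, 118, 119 and 126 CPM with PBS, and every IL-2 library was higher, at 127 to 160 CPM. Its log2 fold change was 0.26 (edgeR's quasi-likelihood test, adjusted p = 0.00236) with H16R and 0.28 (0.00098) with 3x, and 0.14 with WT IL-2, which was not called. With only the groups compared, Tgfb1 was called with WT IL-2 (0.12, edgeR, adjusted p = 0.0673). Of the receptors, Tgfbr1 fell by 0.23 on the log2 scale with H16R (adjusted p = 0.0602, edgeR) and by 0.23 with 3x (0.0458). The H16R call was lost in 6 of 32 fits that left out 1 library, up to an adjusted p of 0.178 in edgeR. The 3x call was lost without MHC II block PBS replicate 1 (adjusted p = 0.119, edgeR) or 2 (0.1002) or 3x replicate 4 (0.176), and both were lost with no CPM filter. Tgfbr2 fell by 0.19 with 3x (edgeR, adjusted p = 0.000475), its 4 libraries at 173 to 184 CPM all below the PBS libraries at 200 to 205 CPM. With H16R Tgfbr2 was at -0.08 and not called, but was called lower with total counts only (-0.13, edgeR, adjusted p = 0.013), with only the groups compared (-0.07, 0.0915) and in both limma fits (-0.14, 0.00439 and 0.0046). With WT IL-2 it was at -0.07 and not called, and was called lower with total counts only (-0.12, edgeR, adjusted p = 0.046) and in both limma fits (-0.13 and -0.14, 0.0135 and 0.0143).

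Smad3 rose under MHC II block by log2 fold changes of 0.17, 0.16 and 0.12 with WT IL-2, H16R and 3x, the highest adjusted p being 0.0181 in edgeR's test. Smad7 was at 196, 192, 189 and 192 CPM with PBS and at 134, 170, 170 and 139 CPM with WT IL-2. It was at 119, 123, 115 and 115 CPM with H16R and at 95.4, 117, 106 and 89.6 CPM with 3x. The treated libraries were all below the PBS libraries. Here the mean was lowest with 3x, whereas under isotype it was lowest with H16R, and in both cases the lowest group overlapped the next. The log2 fold changes of Smad7 were -0.31 (-0.46 to -0.16), -0.71 (-0.86 to -0.55) and -0.92 (-1.07 to -0.77). Skil had -0.35, -0.65 and -0.71, with PBS libraries at 211 to 220 CPM and treated libraries at 118 to 181 CPM. Without WT IL-2 replicate 1, Skil with WT IL-2 was at -0.27 (edgeR, adjusted p = 0.0954).

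The third question was how MHC II block itself moved these genes within a treatment. The direction of every call was down. Of the 9 genes, 2 were lower in PBS mice, 6 after WT IL-2, 7 after H16R and 7 after 3x, and 0 were higher in each. Of all genes tested, 8.13% were lower and 6% higher in PBS mice, 15.3% and 18.2% after WT IL-2, 15.2% and 15.4% after H16R, and 26.9% and 27.2% after 3x. Scaling to total counts alone moved the share of higher genes among all calls from 42.49% to 56.24% in PBS mice, from 50.36% to 65.76% with H16R and from 50.23% to 60.36% with 3x. The 9 genes had median log2 differences of -0.09, -0.20, -0.23 and -0.29, and all genes had -0.01, 0.01, 0.00 and 0.00. A CD8 T cell and NK cell marker sum (5 genes) was 21.1 to 41.1 CPM in the isotype groups and with MHC II block and PBS, and 81.9 to 249 CPM with MHC II block and an IL-2 protein. Marker sums of other cells moved as well. That of dendritic cells was 11.3 to 15.2 CPM under isotype and 27.5 to 91.5 CPM under MHC II block with WT IL-2, 6.15 to 8.64 and 22.0 to 33.1 CPM with H16R, and 7.03 to 9.70 and 21.8 to 30.7 CPM with 3x. The myeloid sum was 13.8 to 22.0 and 23.9 to 486 CPM with WT IL-2, 13.8 to 17.1 and 33.1 to 57.9 CPM with H16R, and 18.2 to 24.0 and 45.8 to 62.7 CPM with 3x. The B cell sum was 42.1 to 78.7 and 71.3 to 518 CPM with WT IL-2, which overlapped, 26.1 to 34.1 and 42.4 to 74.3 CPM with H16R, and 24.1 to 31.2 and 48.3 to 108 CPM with 3x. The part of these cells in the results was not tested.

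**Figure D4:**
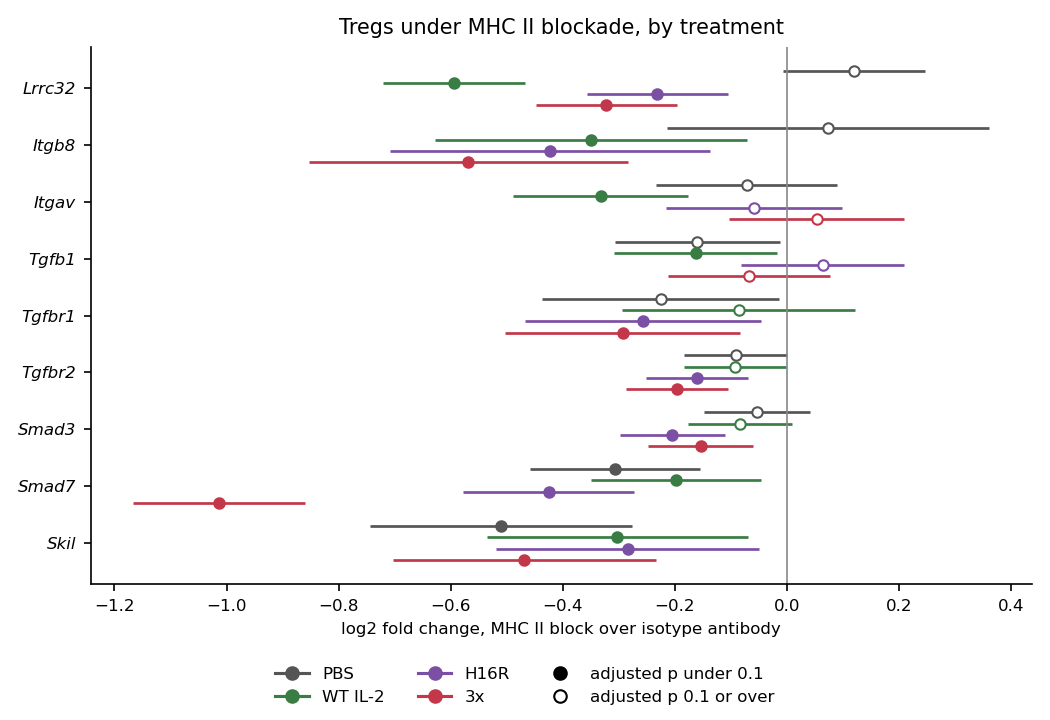
Log2 difference between MHC II block and isotype, with its 95% interval, of each gene in Tregs within PBS, WT IL-2, H16R and 3x, where filled points have an adjusted p below 0.1. Smad7 lies at -1.01 with 3x and Lrrc32 at -0.59 with WT IL-2, and Lrrc32 in PBS mice lies at 0.12.

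In PBS mice the 2 lower genes were the inhibitors Smad7 and Skil. Smad7 fell by 0.31 on the log2 scale (edgeR's quasi-likelihood test, adjusted p = 0.00878), from 221 to 256 CPM under isotype to 189 to 196 CPM. This call was lost in limma on FPKM (adjusted p = 0.138). Skil fell by 0.51 (edgeR, adjusted p = 0.00485), from 240 to 414 CPM to 211 to 220 CPM, and by 0.33 (0.0389) without isotype PBS replicate 4. Without the 2 Treg libraries that held B cell markers, Tgfbr1 (-0.30, edgeR, adjusted p = 0.0433) and Smad3 (-0.10, 0.0723) were called lower in PBS mice. Without isotype PBS replicate 4, Tgfb1 was called lower as well, at -0.25 (0.00947), against -0.16 with it. Lrrc32, Itgb8 and Itgav were not called in PBS mice, with 95% intervals of -0.01 to 0.25, -0.21 to 0.36 and -0.23 to 0.09.

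With WT IL-2, Lrrc32 fell by 0.59 (edgeR's quasi-likelihood test, adjusted p = 6.87e-08) and by 0.52 without MHC II block WT IL-2 replicate 1. In the same comparison Foxp3 went from 983 to 1036 CPM under isotype to 687 to 874 CPM, and the Treg marker sum from 4188 to 4759 CPM to 2579 to 3590 CPM, and their part in the result was not tested. Itgav fell by 0.33 (0.00175), and these were the genes whose libraries did not overlap between the antibodies. Itgb8 at -0.35, Skil at -0.30, Smad7 at -0.20 and Tgfb1 at -0.16 were called less firmly. Without MHC II block WT IL-2 replicate 1 their adjusted p in edgeR was 0.222, 0.186, 0.181 and 0.104. Itgb8 (0.193) and Skil (0.152) were also lost without isotype WT IL-2 replicate 2, Itgb8 (0.114) without isotype WT IL-2 replicate 3b, and Smad7 (0.157) without MHC II block WT IL-2 replicate 4, and Tgfb1 was lost in 6 of 32 fits that left out 1 library, up to 0.238. Tgfbr2, at -0.09 and not called, was called lower in several alternative fits. Among them were DESeq2 (-0.10, adjusted p = 0.0717) and edgeR with no CPM filter (-0.12, 0.064). Smad3, at -0.08 and not called, was called lower with thinned counts (-0.12, edgeR, adjusted p = 0.0663).

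With H16R the lower genes were Smad7 at -0.42, Itgb8 at -0.42, Skil at -0.28, Tgfbr1 at -0.26, Lrrc32 at -0.23, Smad3 at -0.20 and Tgfbr2 at -0.16. Of these, Skil and Tgfbr1 were each lost in 6 of 32 fits that left out 1 library, up to an adjusted p of 0.207 in edgeR, and both with total counts only, with no CPM filter and in limma on FPKM (up to 0.193), and Itgb8 was lost without MHC II block H16R replicate 4 (0.111). With 3x, Smad7 fell by 1.01 (edgeR's quasi-likelihood test, adjusted p = 3.73e-11), the furthest of the 9 genes in any of the 4 treatments. Itgb8 fell by 0.57, Skil by 0.47, Lrrc32 by 0.32, Tgfbr1 by 0.29, Tgfbr2 by 0.20 and Smad3 by 0.15. In each gene called with 3x, all MHC II block libraries were below all isotype libraries. How many of all genes tested separated in this way was not counted. Itgav and Tgfb1 were not called with either mutein. The Treg marker sum with H16R was also lower under MHC II block, at 4498 to 4590 CPM under isotype and 3960 to 4318 CPM under MHC II block. With 3x the sums overlapped, at 4334 to 4540 and 4171 to 4714 CPM. The part of these markers in the results was not tested.

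The change of an IL-2 response with MHC II block is tested by the interaction, the response under MHC II block minus that under isotype. For Lrrc32 it was called with all 3 proteins, at -0.71 (edgeR's quasi-likelihood test, adjusted p = 6.26e-06) for WT IL-2, -0.35 (0.0106) for H16R and -0.44 (0.000478) for 3x. With WT IL-2 it was the single gene called of the 9, against 19.7% of all genes. With H16R, 2 were called against 19.1%, and with 3x 3 against 39%. Itgb8 had -0.50 (0.0981) with H16R and -0.64 (0.0155) with 3x, and the H16R call was lost in 20 of 32 fits that left out 1 library, up to an adjusted p of 0.206 in edgeR. Smad7 had -0.71 (2.05e-05) with 3x, and -0.12 with H16R, which was not called. For Skil, whose level was lower under MHC II block in every treatment, no interaction was called, the values being 0.21, 0.23 and 0.04. Without the 2 Treg libraries that held B cell markers, the Skil value with WT IL-2 was 0.38 and was called (edgeR, adjusted p = 0.0833). Without isotype PBS replicate 4, further interactions were called, among them Itgav with WT IL-2 at -0.38 (edgeR, adjusted p = 0.00563) and Tgfb1 with H16R at 0.31 (0.00834).

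At the same dose and day, the muteins also differed from WT IL-2 and from each other. Under isotype 2 of the 9 genes set H16R apart from WT IL-2 and 4 set 3x apart from it, against 18.6% and 34.7% of all genes. Beside Itgb8, Skil was lower in the H16R libraries, at a difference of -0.32 (adjusted p = 0.0601 in edgeR), which was lost without isotype WT IL-2 replicate 2 (0.251), WT IL-2 replicate 3b (0.122) or H16R replicate 3 (0.239). Smad7, at -0.17 and not called, was called lower with H16R in 6 alternative fits, among them both limma fits on FPKM (-0.27, adjusted p = 0.0234 and 0.0217), and Smad3, at 0.11 and not called, was called higher in 3. For 3x against WT IL-2, Lrrc32 (-0.22, 0.00759) and Itgav (-0.24, 0.021) were lower and Smad7 (0.20, 0.0405) was higher. The Itgav call was lost without WT IL-2 replicate 2 (0.121), and the Smad7 call without WT IL-2 replicate 1 (0.113) or 3x replicate 4 (0.118). In limma on log2(FPKM + 1) and log2(FPKM + 0.1) the Smad7 difference was 0.10 and 0.11, and was not called (adjusted p = 0.343 and 0.335). Between 3x and H16R under isotype 2 genes differed, Smad7 and Lrrc32 (-0.26, 0.0106), against 11.5% of all genes.

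With MHC II blocked, 6 of the 9 genes set H16R apart from WT IL-2 and 7 set 3x apart from it, against 57.5% and 68.7% of all genes. Lower with the muteins were Smad7 (-0.40 and -0.61), Itgb8 (-0.48 and -0.73), Tgfbr1 (-0.31 and -0.32) and Skil (-0.31 and -0.37), H16R given first. The H16R libraries of Lrrc32 exceeded those of WT IL-2, as given above, but 3x did not differ detectably from WT IL-2 (0.05, -0.08 to 0.17). Itgav was higher by 0.17 and 0.15, and with 3x Tgfb1 (0.15) was higher and Tgfbr2 (-0.12) lower. Each of these 4 calls was lost in 2 to 4 of 32 fits that left out 1 library, among them, for Itgav, those without MHC II block WT IL-2 replicate 1 (edgeR, adjusted p = 0.177 and 0.228). Between 3x and H16R 3 genes differed against 25.2% of all genes, and in 3x Lrrc32 (-0.35, edgeR, adjusted p = 0.000327), Smad7 (-0.21, 0.0434) and Tgfbr2 (-0.11, 0.0757) were lower. Smad7 was lost without MHC II block H16R replicate 2 (0.122), 3x replicate 1 (0.137) or 3x replicate 4 (0.195), and Tgfbr2 in 6 of 32 fits that left out 1 library (up to 0.199). With no CPM filter Tgfbr2 was not called for 3x against H16R (edgeR, adjusted p = 0.223) or WT IL-2 (0.41). Against H16R it was also lost with RLE size factors (edgeR, adjusted p = 0.111), total counts only (0.179) and thinned counts (0.1255). Both limma fits lost it too (adjusted p = 0.115 and 0.117). Against WT IL-2 it was lost with only the groups compared (edgeR, adjusted p = 0.152). The sign of the Smad7 difference between the muteins was thus opposite under the 2 antibodies, and the difference between those signs was not tested.

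The fourth question was which of these genes mark Tregs against Tcons of the same mouse. Over 16 mice all 9 genes differed, 7 higher and 2 lower in Tregs, where of 12844 genes 40.7% were higher and 39.8% lower. Scaled to total counts alone, 38.74% of all calls were higher in Tregs, in place of 50.56%. Lrrc32 was higher in Tregs by a log2 difference of 3.42, and the ratio of its CPM within a mouse ran from 4.47 to 18.5 with a median of 10.1. Itgb8 was higher by 2.54, with a ratio of 2.18 to 12.5 and a median of 6.89. Both were higher in all 16 mice. Tgfbr1 (1.01), Itgav (0.91), Skil (0.81) and Tgfb1 (0.29) were also higher in Tregs of all 16 mice, and Smad3 (0.19) in 15 of 16. Tgfbr2 was lower in all 16 mice, at -0.42 (adjusted p = 5.28e-10 in edgeR with mouse as a block), while Smad7 was at -0.12 (0.025), with 4 mice in the other direction. Tcons also held more platelet marker RNA than Tregs, at sums of 10.5 to 30.4 against 1.85 to 6.30 CPM, and more B cell marker RNA in most groups, at up to 830 CPM. In most groups they also held more dendritic cell and more CD8 and NK marker RNA. The dendritic cell sum was 34.5 to 222 CPM over all Tcons and 6.15 to 91.5 CPM over all Tregs. The CD8 and NK sum was 38.0 to 356 and 21.1 to 249 CPM. The part of these cells in the differences was not tested.

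The gap between the fractions, fitted over both antibodies together, moved with treatment. For Lrrc32 it was 4.04 with PBS and 3.20, 3.18 and 3.26 with WT IL-2, H16R and 3x. Under isotype, mean Lrrc32 with PBS and WT IL-2 was 308 and 590 CPM in Tregs, and 16.8 and 99.9 CPM in Tcons. Under MHC II block these means were 335 and 386 CPM, and 22.65 and 27.6 CPM. Whether the change of the gap differed between the antibodies was not tested. The change of the Lrrc32 gap from PBS was -0.85 (edgeR's quasi-likelihood test with mouse as a block, adjusted p = 0.0831), -0.86 (0.0269) and -0.78 (0.0351). The WT IL-2 value was lost in 6 of 16 fits that left out 1 mouse, up to 0.212, and was -0.50 without isotype WT IL-2 replicate 2. Without that mouse Itgb8, otherwise not called, changed with WT IL-2 by 1.32 (0.0255). For Itgav the gap went the other way, from 0.33 with PBS to 0.95, 1.18 and 1.16, a change of 0.61 (0.04), 0.85 (0.00138) and 0.83 (0.000888). The WT IL-2 change was lost without isotype PBS replicate 1 (0.105), isotype WT IL-2 replicate 1 (0.149) or MHC II block WT IL-2 replicate 2 (0.103). Tgfbr2 changed by 0.30 (0.0406) with WT IL-2 and 0.23 (0.0347) with H16R, and Skil with 3x by -0.34 (0.0102). The Tgfbr2 change with WT IL-2 was lost without isotype WT IL-2 replicate 1 (0.134), and that with H16R was 0.14 and not called with total counts only (edgeR, adjusted p = 0.129). Smad7 changed with 3x by -0.32 (0.0609) and Skil with H16R by -0.22 (0.0854), which were lost in 4 and 6 of 16 fits that left out 1 mouse, up to 0.176 and 0.171. Of the 9 genes, 3, 4 and 4 changed from PBS with WT IL-2, H16R and 3x, against 12.2%, 40.6% and 46.5% of all genes. Without the mouse as a block Skil was no longer called with H16R (0.363) or 3x (0.141).

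The last question was whether Tcons showed the same responses. With 2 mice per group, treatments were compared over both antibodies, 4 libraries against 4, with antibody as a covariate. Lrrc32 rose with all 3 IL-2 proteins, Tgfb1 rose with all 3, and Smad7 fell with WT IL-2 and H16R. In all, 3 of the 9 genes rose and 2 fell with WT IL-2, 3 rose and 3 fell with H16R, and 2 rose and 0 fell with 3x. Of 12526 genes, 14.8% rose and 12.4% fell with WT IL-2, 16.2% rose and 14.9% fell with H16R, and 4.71% rose and 5.17% fell with 3x. The 4 PBS libraries were again shared by these comparisons. Smad7 and Tgfbr2, not called with 3x, moved with it in opposite directions under the 2 antibodies. Smad7 went from 206 to 208 CPM with PBS to 224 to 225 CPM with 3x under isotype. Under MHC II block it went from 207 to 226 CPM to 142 to 154 CPM. Tgfbr2 went from 286 to 296 CPM to 329 to 347 CPM under isotype, and from 292 to 307 CPM to 240 to 243 CPM under MHC II block. Each range holds 2 libraries, and this difference was not tested.

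In Tcons, Lrrc32 was at 18.2 and 15.3 CPM with isotype and PBS, at 69.7 and 130.0 CPM with WT IL-2, at 83.1 and 78.3 CPM with H16R and at 56.1 and 51.5 CPM with 3x. With MHC II block it was at 20.3 and 25.0 CPM with PBS, at 20.7 and 34.5 CPM with WT IL-2, at 50.6 and 44.7 CPM with H16R and at 41.4 and 42.9 CPM with 3x. Every IL-2 library under isotype was above the PBS libraries, and with MHC II block the WT IL-2 libraries were near them. The log2 fold changes were 1.47 (edgeR's quasi-likelihood test, adjusted p = 0.0199), 1.58 (0.0104) and 1.21 (0.0722), and the 3x call was lost in 6 of 16 fits that left out 1 library, up to 0.171. Without isotype WT IL-2 replicate 2 the WT IL-2 value was 1.03. Foxp3 moved in the same libraries, from 53.3 and 59.0 CPM with isotype and PBS to 98.2 and 183 CPM with WT IL-2, 130 to 135 CPM with H16R and 91.0 to 111 CPM with 3x. With MHC II block it was at 67.9 and 76.7 CPM with PBS, 46.8 to 67.9 CPM with WT IL-2, 84.6 to 95.2 CPM with H16R and 93.8 to 95.3 CPM with 3x. Markers of other cells moved in Tcons too. Under isotype the B cell sum was 763 to 830 CPM with PBS and 132 to 384 CPM with an IL-2 protein. With MHC II block the myeloid sum was 32.6 to 34.4 CPM with PBS and 311 to 499 CPM with WT IL-2, and the CD8 and NK sum was 38.0 to 40.2 CPM with PBS and 193 to 356 CPM with an IL-2 protein. The part of Treg RNA and of these other cells in the Tcon values was not tested.

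**Figure D5:**
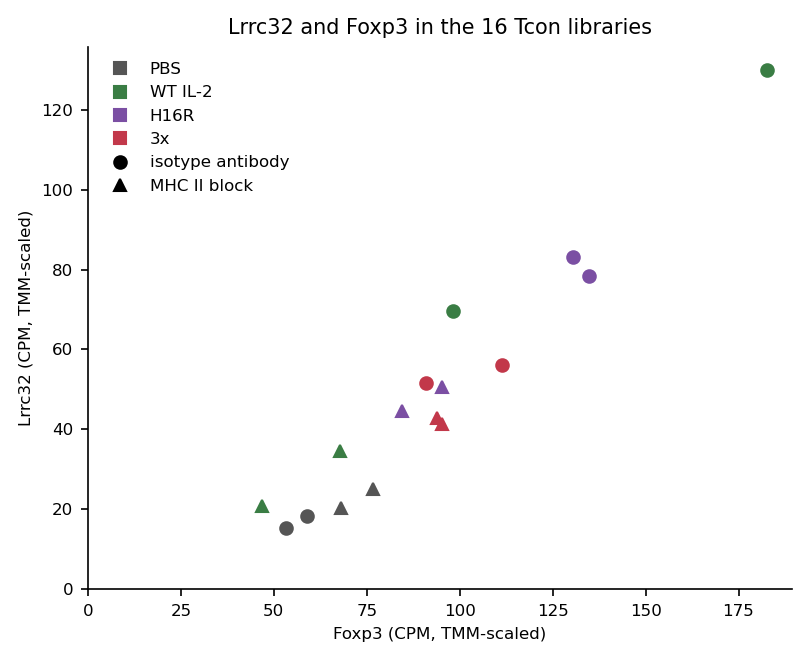
Lrrc32 against Foxp3, both in CPM, in the 16 Tcon libraries, with circles for isotype and triangles for MHC II block and colors for treatment. Isotype WT IL-2 replicate 2 is farthest out, at 183 CPM of Foxp3 and 130.0 CPM of Lrrc32.

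Tgfb1 in Tcons rose by log2 fold changes of 0.19 (edgeR's quasi-likelihood test, adjusted p = 0.034), 0.20 (0.0224) and 0.22 (0.0381), and Smad3 by 0.17 (0.0848) with WT IL-2 and 0.26 (0.0181) with H16R. Smad7 changed by -0.41 (0.0383) with WT IL-2 and -0.35 (0.0538) with H16R, Tgfbr2 by -0.28 (0.0403) and -0.22 (0.0823), and Skil by -0.36 (0.09) with H16R. Many of these rested on few libraries. Of 16 fits that left out 1 library each, Smad3 was lost with WT IL-2 in 9 and Skil with H16R in 10, up to an adjusted p of 0.283 and 0.227 in edgeR. With WT IL-2, Smad7 was lost without isotype WT IL-2 replicate 1 or MHC II block PBS replicate 2 (up to 0.116), Tgfb1 without MHC II block PBS replicate 1 or 2 or MHC II block WT IL-2 replicate 1 (up to 0.113), and Tgfbr2 without any of the libraries named for Tgfb1 or isotype WT IL-2 replicate 1 (up to 0.128). With H16R, Smad7 was lost without either isotype H16R or either MHC II block PBS library (up to 0.149), and Tgfbr2 without these or MHC II block H16R replicate 1 (up to 0.221). Tgfb1 with 3x was lost without isotype PBS replicate 2, either MHC II block PBS library or MHC II block 3x replicate 2 (up to 0.123). Without isotype WT IL-2 replicate 2, Itgb8 at -1.24 (edgeR, adjusted p = 0.0204), Itgav at -0.47 (0.00793), Skil at -0.44 (0.00935) and Tgfbr1 at -0.28 (0.0191) were called with WT IL-2, though none was called with that library in the fit. That library had 30.7 CPM of Itgb8 and 60.3 CPM of Itgav, against 5.16 and 29.9 CPM in replicate 1.

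MHC II block against isotype in Tcons, over all 4 treatments and 8 libraries against 8, gave 1 gene higher and 7 lower, against 13.8% and 15.1% of all genes. The antibody groups also differed in markers of other cells, whose part was not tested. The myeloid sum with WT IL-2 was 45.7 to 63.1 CPM under isotype and 311 to 499 CPM under MHC II block, the CD8 and NK sum with H16R was 125 to 142 and 291 to 353 CPM, and the B cell sum with PBS was 763 to 830 and 116 to 125 CPM. In PBS mice the myeloid sum was instead lower under MHC II block, at 99.7 to 111 and 32.6 to 34.4 CPM. So was the CD8 and NK sum there, at 79.0 to 103 and 38.0 to 40.2 CPM. The dendritic cell sum in PBS mice was 94.5 to 129 and 34.5 to 36.1 CPM, but it was higher under MHC II block with each IL-2 protein. The receptors Tgfbr1 (-0.35, edgeR's quasi-likelihood test, adjusted p = 0.0128) and Tgfbr2 (-0.19, 0.0455) and the inhibitor Skil (-0.44, 0.0175) were lower, and Tgfb1 was higher (0.12, 0.0517). These values pool treatments that were not alike. In PBS mice the mean of Tgfb1 was 105.8 CPM under each antibody. Mean Tgfbr2 in PBS mice was 290.7 CPM under isotype and 299.4 CPM under MHC II block, whereas with 3x it was 338 and 241.4 CPM. Lrrc32 (-0.64, 0.0947), Itgav (-0.34, 0.0987), Smad3 (-0.13, 0.0781) and Itgb8 (-1.16, 0.058) were called near the threshold and lost in 11, 10, 9 and 4 of 16 fits that left out 1 library. Without isotype WT IL-2 replicate 2 they were at -0.46, -0.19, -0.13 and -0.72. Itgb8 was lost without isotype 3x replicate 1, MHC II block WT IL-2 replicate 1 or 2 or MHC II block 3x replicate 1 (up to 0.130). Tgfb1 was lost without isotype 3x replicate 1, MHC II block WT IL-2 replicate 1 or MHC II block 3x replicate 2 (up to 0.132), and Tgfbr2 without MHC II block 3x replicate 1 or 2 (up to 0.103).

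Among other genes of the pathway, of which 56 of 60 listed were tested in Tregs, a list of other inhibitors and regulators had more members that fell than rose in each comparison with PBS. Of 14 such genes tested, 2 rose and 7 fell with WT IL-2 under isotype, 2 and 7 with H16R and 3 and 7 with 3x. With MHC II block 0 rose and 8 fell with WT IL-2, 1 and 9 with H16R and 2 and 11 with 3x, the shares of all genes, for this and the lists that follow, being 26% higher and 26.2% lower with WT IL-2 under isotype, 31.4% and 32.8% with H16R and 31.3% and 32.3% with 3x, and under MHC II block 21.9% and 13.7%, 32.7% and 33.8%, and 34.7% and 38.3%. Named by size of change, Bambi, a decoy receptor, fell by 0.65 with WT IL-2 under isotype and by 0.50 under MHC II block, Usp11 fell by 0.82 with H16R under MHC II block, and Tgif1, a Smad corepressor, fell by 1.25 with 3x under MHC II block. Not every gene of the list restrains the pathway, since Usp11, like Usp4 and Usp15 in the same list, is a deubiquitinase known to enhance TGF-beta signaling. Usp11 fell in all 6 comparisons, and its falls are among those counted. The list was also chosen with earlier results of these data known, so its counts are not independent of them.

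Of 6 other receptors tested, 0 rose and 4 fell with WT IL-2 under isotype, 0 and 3 with H16R and 1 and 3 with 3x, and with MHC II block 1 and 2, 1 and 4, and 0 and 4. Tgfbr3, the coreceptor betaglycan, fell in all 6 comparisons with PBS. Under isotype its mean was 15.3 ± 3.0 CPM (SD, n = 4) with PBS and 6.53, 4.96 and 6.21 CPM with WT IL-2, H16R and 3x. With MHC II block it was 13.9 CPM with PBS and 8.07, 4.56 and 4.15 CPM. Of 13 other ligand and activation genes, 6 rose and 2 fell with WT IL-2 under isotype, 5 and 3 with H16R and 5 and 4 with 3x, and with MHC II block 5 and 0, 7 and 1, and 6 and 1. Among them Itgb5, another partner of alpha v, rose by 1.44 with WT IL-2 under MHC II block, but its 4 libraries ran from 3.88 to 20.2 CPM. Of 9 other Smads and partners, 1, 5 and 3 rose and 0 fell under isotype, and 1 rose with each protein while 0, 3 and 4 fell under MHC II block.

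Of 14 genes that TGF-beta is known to induce or repress in T cells, 9 rose and 1 fell with WT IL-2 under isotype, 6 and 3 with H16R and 5 and 6 with 3x. With MHC II block 8 rose and 0 fell with WT IL-2, and 10 rose and 3 fell with each mutein. The list holds genes of both kinds, so its counts give no direction of the pathway. Itgae, the integrin subunit CD103 that TGF-beta induces, rose under isotype from 93.5 ± 7.6 CPM (SD, n = 4) with PBS to 222, 229 and 169 CPM with WT IL-2, H16R and 3x. Gzmb, a cytotoxic granule protease that TGF-beta represses, rose in every comparison, from 9.12 CPM with PBS to 747 CPM with 3x under MHC II block, where the CD8 and NK marker sum was also highest. Under MHC II block Tbx21, the factor T-bet, rose by 1.47 with H16R and Cdkn1a, a cell cycle inhibitor, by 1.6 with 3x.

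Across the 32 Treg libraries, which share treatments and so are not independent, log2 CPM of the 9 genes were correlated to different degrees. Pearson's r was 0.86 between the inhibitors Smad7 and Skil, 0.83 between Itgb8 and Tgfbr1, 0.81 between Tgfbr1 and Skil, 0.71 between Tgfbr1 and Smad7, 0.70 between Tgfbr2 and Skil, 0.82 between Lrrc32 and Itgav and 0.82 between Lrrc32 and Smad3, but 0.20 between Lrrc32 and Itgb8. Of 9524 genes compared, those most like Lrrc32 were Oaz2 and Pbxip1 (r = 0.95 and 0.95) and those most like Smad7 were Ccr7, a homing receptor (0.96), and Tgif2, a Smad corepressor (0.95). Itgb8 was most like Kansl1l and Phactr2 (0.92 and 0.91), Itgav most like Fnbp1 and Ulk1 (0.93 and 0.93), and Tgfb1 most like Cox20 and Dph3 (0.85 and 0.85). Tgfbr1 was most like Cdc73 and Arl5b (0.94 and 0.91), Tgfbr2 most like Scaf11 and Pde4b (0.87 and 0.87), Smad3 most like Tab2 and Exoc2 (0.94 and 0.93), and Skil most like Pde4d and Zbtb10 (0.95 and 0.95).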

How the data were processed

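RNA of 32 Treg and 16 Tcon spleen libraries was analysed from the matrices that the authors deposited. The expected counts that the authors deposited came from OSA alignment to mouse B38 (GRCm38) and an Omicsoft version of RSEM, not normalized, and 72.6% of nonzero counts were exactly whole (no tolerance). The FPKM values that the authors deposited came from the same estimates per transcript length and depth, and were used to compare levels between genes. Tables of the authors' DESeq2 comparisons, which hold log2 fold changes and p-values, were not used, and 0 columns stayed unmapped.

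Expected counts were rounded and fitted with edgeR 4.0.16's quasi-likelihood test in R 4.3.3 after TMM scaling (factors 0.944 to 1.062), with Benjamini-Hochberg adjustment over all genes tested and a threshold of 0.1. Protein-coding genes above 0.5 CPM in at least 4 libraries and without empty cells were kept, 12392 in Tregs, 12844 in the paired fit and 12526 in Tcons. CPM printed are scaled by TMM over all 48 libraries. Fits with DESeq2 1.42.0 and with limma 3.58.1 on log2(FPKM + 1), each scaling, filter and left-out library were alternatives, and the steps were tested on simulated data. The mouse given in the labels links Tcons to Tregs, and deviations of the 16 pairs correlated at 0.207 to 0.602, so the mouse was a block. Of the 4 isotype WT IL-2 Treg libraries, 2 carry mouse number 3 in the labels and were kept as 3a and 3b. Gene positions are from GENCODE vM21.

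Genes named beyond the 9 are, per comparison with PBS, the 2 largest rises and 2 largest falls past the threshold among listed pathway genes above 5 CPM, and the 2 genes most correlated with each of the 9. The result of 1 gene named by this rule is not reported here. Members and lists were chosen with earlier results of these data known. Samples of a group were taken as separate mice, as the series' design gives 4 a group.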

Additional observations from a re-analysis of the deposited data

Results flagged for a closer look

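In 72 checks of single libraries within groups of 4, 3 stood far from the others, where chance gives about 1 in 20. Itgav in MHC II block PBS replicate 3 was at 51.91 CPM against 49.55 to 49.95 CPM in the others, a gap of 0.829 of the group's range. Tgfbr2 in isotype PBS replicate 4 was at 245.4 CPM against 202.6 to 208.5 CPM (gap 0.8625). Skil in MHC II block H16R replicate 2 was at 154.4 CPM against 129.6 to 132.3 CPM (gap 0.8921).

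In Tregs the IL-2 response under MHC II block differed from that under isotype, by edgeR's test of the difference on the log2 scale, for Lrrc32 with WT IL-2 (-0.71, adjusted p = 6.26e-06), H16R (-0.35, 0.0106) and 3x (-0.44, 0.000478). It also differed for Itgb8 with H16R (-0.50, 0.0981) and 3x (-0.64, 0.0155) and for Smad7 with 3x (-0.71, 2.05e-05). The Itgb8 call with H16R was lost in most fits that left out a library, as given above. It was also lost with total counts only (edgeR, adjusted p = 0.113) and in limma on log2(FPKM + 1) (0.129).

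Over both antibodies together, the response in Tregs differed from that in Tcons of the same mice, by edgeR's test of that difference, for Itgav with WT IL-2 (0.61, adjusted p = 0.04), H16R (0.85, 0.00138) and 3x (0.83, 0.000888). It was smaller in Tregs than in Tcons for Lrrc32 with WT IL-2 (-0.85, 0.0831), H16R (-0.86, 0.0269) and 3x (-0.78, 0.0351). It differed for Tgfbr2 with WT IL-2 (0.30, adjusted p = 0.0406, edgeR) and H16R (0.23, 0.0347), for Skil with H16R (-0.22, 0.0854) and 3x (-0.34, 0.0102), and for Smad7 with 3x (-0.32, 0.0609).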

How the results depend on the processing

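Over 9945 refits of one gene in one comparison, 9527 stayed on the same side of the threshold, 268 were no longer called and 150 became called. Of the results called in either fit, 0 changed sign, while the sign of values called in neither fit was not followed. The number of the 9 genes called was within 1.5 times its value except as follows. For MHC II block against isotype in Tregs, the 2 genes of PBS mice became 1 with limma on log2(FPKM + 1), 1 with limma on log2(FPKM + 0.1) and 4 without the 2 Treg libraries that held B cell markers (an alternative chosen after seeing the data), and the 6 of WT IL-2 became 3 when only the groups compared were fitted and 3 without those 2 libraries. Under isotype, the 2 genes of H16R against WT IL-2 became 4 with DESeq2, with only the groups compared and without those 2 libraries, and the 2 of 3x against H16R became 5 with only the groups compared. The interaction with WT IL-2 went from 1 gene to 2 with no CPM filter, with DESeq2 and without those 2 libraries. That with H16R went from 2 genes to 1 with total counts only, no CPM filter, either limma fit, counts thinned to the smallest library and without those 2 libraries. The causes were not tested.

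Leaving out 1 library or mouse at a time, the number of genes called ran, for IL-2 against PBS in Tregs, from 6 to 7, 5 to 6 and 5 to 8 under isotype and from 5 to 7, 7 to 9 and 8 to 9 under MHC II block (WT IL-2, H16R and 3x in order). For MHC II block against isotype it ran from 2 to 3 in PBS mice, 2 to 8 with WT IL-2, 4 to 7 with H16R and 7 to 7 with 3x, and for the interactions from 1 to 3, 1 to 5 and 3 to 6. Under isotype it ran from 0 to 3 for H16R against WT IL-2, and under MHC II block from 1 to 4 for 3x against H16R. For the change of the Treg to Tcon difference from PBS it ran from 0 to 4 with WT IL-2, and in Tcons from 1 to 9, 3 to 8 and 0 to 3 with WT IL-2, H16R and 3x and from 3 to 8 for MHC II block. In fits of only the groups compared, all genes called went from 1429 to 2258 for 3x against H16R under isotype and from 1751 to 780 for MHC II block in PBS mice.

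Scaling to total counts only shifted the median of all genes by -0.11 for Tregs against Tcons with H16R. Same-numbered Treg libraries did not deviate together (median r 0.0176 over 112 pairs, other numbers -0.0134), so numbers were not read as pairs. With the replicate block in Tregs, 169 of 171 results were unchanged, the counts of genes called stayed the same in all 19 comparisons, Tgfb1 was no longer called for MHC II block with WT IL-2 and Tgfbr2 was (edgeR, adjusted p = 0.0879). In Tcons the replicate block took the WT IL-2 count from 5 to 4 and the MHC II block count from 8 to 6 and left the others at 6 and 2.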
